A study of Rattus norvegicus with 2 samples.

Results

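The miRNAs miR-143 and miR-145 are cut from neighbouring hairpins of a single primary transcript. They are best known from smooth muscle, where serum response factor and its co-activator myocardin switch them on and where they favour the contractile over the proliferating state, in part by repressing Klf4, Klf5 and Elk1. They are also expressed in the early heart, and vesicles that carry them are known to pass between vascular cells. All rows of the count table named miR-143, miR-145a or miR-145b, of either arm, were taken. There were 4 such rows of 635, mmu-miR-143-3p, mmu-miR-143-5p, mmu-miR-145a-5p and mmu-miR-145a-3p, and 0 rows named miR-145b.

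Exosomal small RNA was sequenced from the medium of primary heart cells of Wistar rats aged 1 to 2 days. Cultures grown for 48 h without angiotensin II (Ang II) gave the normal cardiomyocyte exosomes (NC-Exo), and cultures grown for 48 h with 1 μmol/L Ang II gave the hypertrophic cardiomyocyte exosomes (HC-Exo), in both cases after serum starvation. Both cultures had been enriched for cardiomyocytes by differential adhesion for 60 min and plated with 0.1 mM bromodeoxyuridine, an agent against dividing cells, so that other heart cells were reduced but not absent by design. There was 1 library per group, so differences between the groups have no replicate check, and every test compares these 2 libraries and not the conditions.

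In rats the hairpins Mir143 and Mir145 both lie on the minus strand of chromosome 18 inside the long non-coding gene Carmn, also known as Mir143hg, with 1278 bases between them. In the RefSeq record of the GRCr8 build, Mir143 spans chr18:57371349-57371453 and Mir145 spans chr18:57369983-57370070. The hairpins are shown because the results turn on their arms. They are written 5′ to 3′, and capitals mark the mature arms, the 5p arm first.
Mir143: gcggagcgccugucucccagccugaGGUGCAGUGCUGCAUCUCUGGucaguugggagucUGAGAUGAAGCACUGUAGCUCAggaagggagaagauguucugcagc
Mir145: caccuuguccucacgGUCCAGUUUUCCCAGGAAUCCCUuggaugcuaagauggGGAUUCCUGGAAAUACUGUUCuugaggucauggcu

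The 4 mature forms follow from the same RefSeq record, with the seed (bases 2 to 8), the part that chiefly decides which messages a miRNA pairs with, in capitals.
rno-miR-143-3p: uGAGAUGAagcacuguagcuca
rno-miR-143-5p: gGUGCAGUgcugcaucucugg
rno-miR-145-5p: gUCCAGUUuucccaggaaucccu
rno-miR-145-3p: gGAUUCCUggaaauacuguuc
The 4 seeds differ, so the arms of this cluster do not form a seed family. In the 724 rat mature records of the same list, 0 others carried any of these 4 seeds, and the closest other mature sequence was 8 edits from miR-143-3p, 7 from miR-143-5p, 9 from miR-145-5p and 6 from miR-145-3p. The rows of the count table carry mouse names, and miR-145a was matched to the rat miR-145 by its number and arm. The sequences counted in these rows were not read, so the seeds shown are those of the rat records alone.

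Summed over all rows, the counts came to 102608 miRNA reads in NC-Exo against 133155 in HC-Exo. Levels were therefore given as RPM (reads per 1000000 miRNA reads), where 1 read stands for 9.75 RPM in NC-Exo against 7.51 RPM in HC-Exo. Some rows carry identical counts. The rows miR-486a-5p and miR-486b-5p each hold 654 NC-Exo and 875 HC-Exo reads, and miR-669a-3p and miR-669o-3p each hold 274 and 248. Whether such rows share reads was not tested, so both sums may count some reads more than once. All intervals are 95% exact (Clopper-Pearson or conditional) intervals that cover the counting error of reads only. They leave out variation between cultures and treat PCR copies as if they were separate molecules. Together the 4 rows took 2401 reads or 2.34% of NC-Exo (2.25 to 2.43%) and 3670 reads or 2.76% of HC-Exo (2.67 to 2.85%).

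The main products of both hairpins were among the abundant exosomal miRNAs. For miR-143-3p, 1596 reads were counted in NC-Exo against 2571 in HC-Exo, a level of 15554 RPM (14806 to 16330) and 19308 RPM (18576 to 20062). This arm was the miRNA of rank 15 in NC-Exo against rank 12 in HC-Exo. For miR-145a-5p, 768 reads were counted in NC-Exo against 1011 in HC-Exo, a level of 7485 RPM (6967 to 8031) and 7593 RPM (7133 to 8074), or rank 26 and rank 27. The opposite arms were far rarer. The passenger arm miR-145a-3p had 35 reads in NC-Exo against 81 in HC-Exo, a level of 341 RPM (238 to 474) and 608 RPM (483 to 756). The passenger arm miR-143-5p had 2 reads in NC-Exo against 7 in HC-Exo, a level of 19.5 RPM (2.36 to 70.4) and 52.6 RPM (21.1 to 108). Thus the order of levels was the same in both libraries, miR-143-3p, miR-145a-5p, miR-145a-3p and miR-143-5p, and the intervals of neighbours in that order did not overlap. Between the libraries, the intervals were apart for miR-143-3p and miR-145a-3p and overlapped for miR-145a-5p and miR-143-5p.

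**Figure D1:**
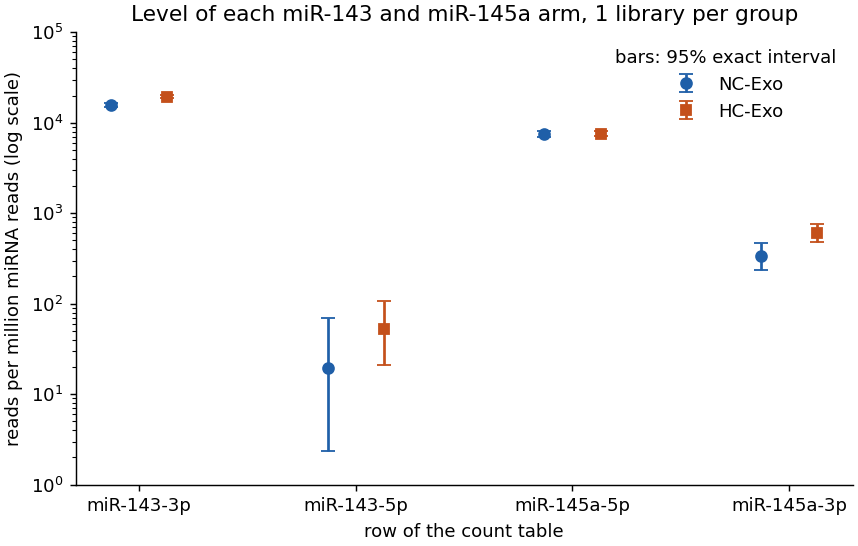
Level of each arm in RPM on a log axis, for the NC-Exo library (circles) and the HC-Exo library (squares), with 95% exact intervals of the counting error. The main arms lie between 7485 and 19308 RPM in both libraries, and miR-143-5p lies lowest with wide intervals from 2 and 7 reads.

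The libraries were then compared miRNA by miRNA with the two-sided exact binomial test and Benjamini-Hochberg adjustment, in the 340 miRNAs whose reads summed to 10 or more. Of the 4 rows, 3 were tested, and miR-143-5p with 9 reads fell below this filter. The level of miR-143-3p was higher in HC-Exo by a log2 ratio of 0.31 (0.22 to 0.40), or 1.24-fold (1.17 to 1.32, adjusted p = 6.28e-10 by the exact binomial test). For its cluster partner miR-145a-5p, the log2 ratio was 0.021 (-0.12 to 0.16) and did not pass the threshold of 0.05 on the adjusted p-value (exact binomial test, adjusted p = 0.891). This interval holds ratios from 0.923 to 1.12. The passenger arm miR-145a-3p was higher in HC-Exo by a log2 ratio of 0.83 (0.25 to 1.45), or 1.78-fold (1.19 to 2.73, adjusted p = 0.0211 by the exact binomial test). The untested miR-143-5p had a ratio of 2.70 with a counting interval from 0.514 to 26.6, or 1.80 with its NC-Exo reads set at 3.

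Over all 340 miRNAs tested, with rows of identical counts each counted, 22.4% passed the threshold. Those past it with a higher level in HC-Exo were 13.8% of the 340, or 47 of the 76 past the threshold, where upper-quartile scaling gave 24 of 62. Those past it whose level also changed by a log2 ratio of 1 or more in either direction were 4.71% of the 340, and 0 of the miR-143 and miR-145a rows were among them. The share that passed grew with depth. Among the 41 miRNAs whose reads summed to 1000 or more, to which both main arms belong, 65.9% passed, 15 higher and 12 lower in HC-Exo, with log2 ratios between -0.49 and 0.50 and a median of 0.044. In this group, 6 miRNAs had a higher log2 ratio than miR-143-3p, and 2 had one smaller in size than miR-145a-5p. For miR-145a-3p, the 90 miRNAs with 58 to 232 reads over both libraries were taken as its peers after its values were seen. Of these, 18.9% passed the threshold, and 7 had a higher log2 ratio than miR-145a-3p. The median log2 ratio was 0.13 over these peers and 0.10 over all miRNAs tested.

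**Figure D2:**
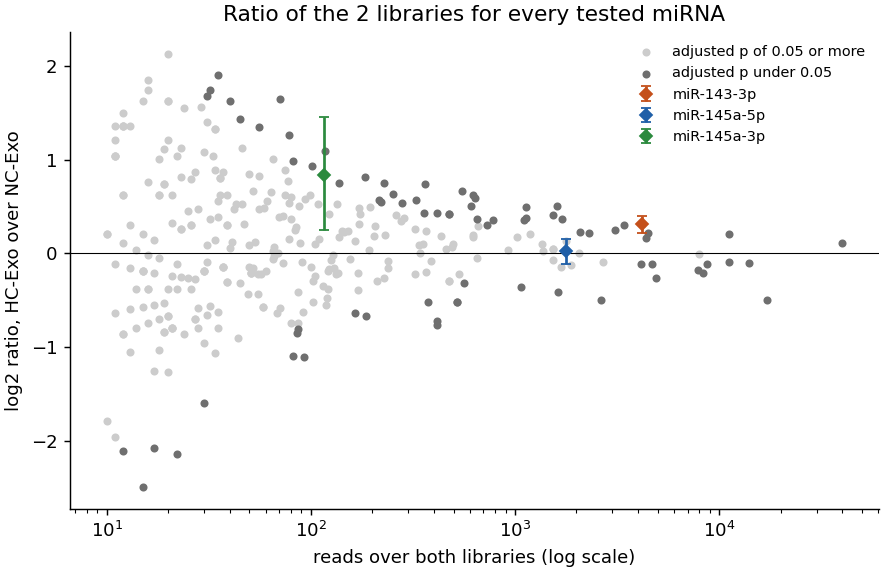
Log2 ratio (HC-Exo to NC-Exo) against the summed reads (log axis) for the 340 tested miRNAs, with libraries of 3 reads or fewer set at 3 reads. Dark points had an adjusted p-value under 0.05, and the 3 tested rows of the cluster carry 95% exact intervals, with miR-143-3p at 0.31, miR-145a-5p at 0.021 and miR-145a-3p at 0.83.

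These calls allow for counting error alone. If cultures of a group varied with a coefficient of variation of 0.1, an assumed value, edgeR's exact test gave an adjusted p of 0.484 for miR-143-3p and 0.240 for miR-145a-3p. Other scalings of the libraries lowered every log2 ratio by up to 0.12, which left miR-143-3p above 0 at 0.19 under upper-quartile scaling (exact binomial test, adjusted p = 0.000624), took miR-145a-3p to 0.71 (exact binomial test, adjusted p = 0.0686) and turned the sign of miR-145a-5p to -0.10.

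The balance between the cluster members does not depend on the scaling, since both counts come from 1 library. In NC-Exo there were 2.08 reads of miR-143-3p for each read of miR-145a-5p (1.91 to 2.27), and in HC-Exo there were 2.54 (2.36 to 2.74). The log2 of this ratio was 1.06 in NC-Exo against 1.35 in HC-Exo, which differ by 0.29 (0.13 to 0.46, Fisher's exact test, adjusted p = 0.0017 over 22 cluster pairs). With both arms of each hairpin summed, the ratio was 1.99 in NC-Exo against 2.36 in HC-Exo, and the difference was 0.25 (0.085 to 0.41, Fisher's exact test, adjusted p = 0.0103). The read ratio within a library is not a ratio of molecules, because each sequence is ligated and amplified with its own efficiency. Its difference between the libraries is free of this as far as that efficiency was the same in both. Like the tests of single rows, the test of this difference allows for counting error alone.

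To place this difference, the same ratio was taken for pairs of miRNAs from other known clusters. Of 26 pairs listed, 22 had at least 10 reads for each miRNA, and 45.5% of the 22, the miR-143 and miR-145a pair included, passed the threshold. The median size of the log2 difference was 0.40. The miR-143-3p and miR-145a-5p pair was below it, with 15 pairs larger and 6 smaller in size. The muscle pair miR-1a-3p and miR-133a-3p, which shares control by serum response factor, counted 16614 and 417 NC-Exo reads and 23271 and 694 HC-Exo reads, a difference of -0.25 (-0.43 to -0.069, Fisher's exact test, adjusted p = 0.0165), so that its more abundant partner lost ground in HC-Exo while miR-143-3p gained. The second muscle pair, miR-206-3p and miR-133b-3p, counted 14 and 215 NC-Exo reads and 57 and 397 HC-Exo reads, a difference of 1.14 (0.24 to 2.13, Fisher's exact test, adjusted p = 0.0261).

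Among the other pairs past the threshold, the largest were miR-132-3p and miR-212-3p with a difference of 1.51, miR-199a-3p and miR-214-3p with 0.91, miR-23a-3p and miR-27a-3p with -0.83 and miR-23b-3p and miR-27b-3p with -0.77. The remaining 3 were miR-23a-3p and miR-24-3p with -0.41, miR-99b-5p and miR-125a-5p with 0.38, and miR-93-5p and miR-25-3p with 0.36. The smallest differences were those of miR-322-5p and miR-503-3p with 0.17 (-0.24 to 0.58), miR-15b-3p and miR-16-5p with -0.21 (-0.84 to 0.43) and miR-20a-5p and miR-19b-3p with 0.21 (-0.52 to 0.98). All of these intervals are wider than that of the miR-143-3p and miR-145a-5p pair. Pairs that share miR-23a-3p or miR-93-5p are not independent of each other, and several of these miRNAs, miR-24-3p, miR-16-5p and miR-199a-3p among them, have copies at more than 1 locus. The reads of miR-23a-3p (3933 in NC-Exo, 4418 in HC-Exo) lie close to those of miR-23b-3p (3677 and 4207). Likewise, the reads of miR-27a-3p (208 and 414) lie close to those of miR-27b-3p (215 and 420). Whether these rows share reads was not tested, so their 2 pairs, both past the threshold, may not be independent either. The muscle pairs each hold a row of miR-133.

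**Figure D3:**
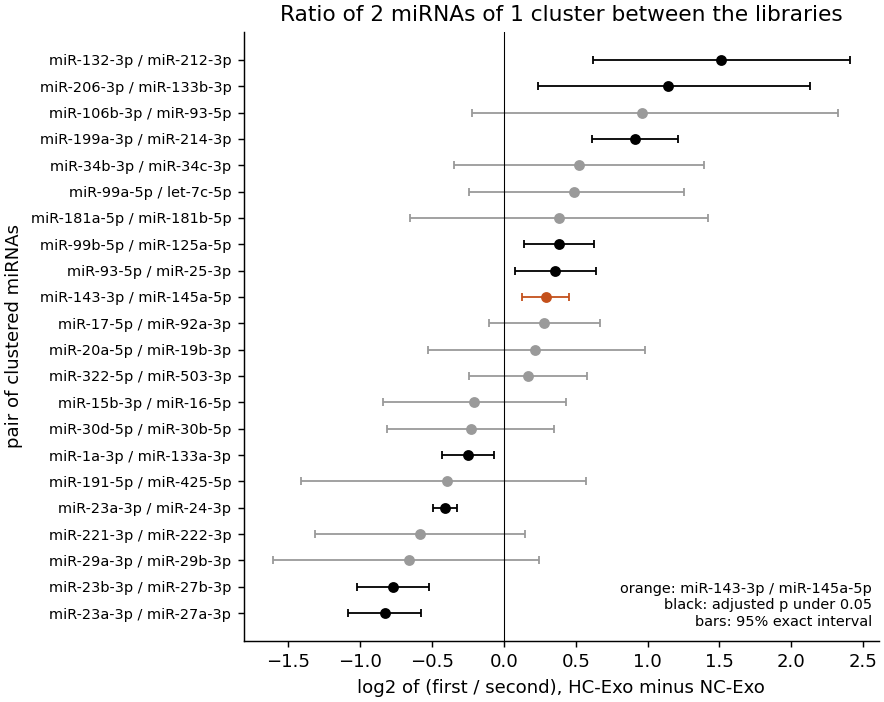
Difference between HC-Exo and NC-Exo in the log2 ratio of clustered miRNAs, for 22 pairs, with 95% exact intervals. The miR-143-3p and miR-145a-5p pair (orange) lies at 0.29 and its interval does not reach 0, and pairs in black had an adjusted p-value under 0.05.

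The hairpins differed in the share of exosomal reads that came from the rarer arm. As between cluster members, these are shares of reads and not of molecules. In NC-Exo the passenger arm made up 0.125% of the miR-143 reads (0.015 to 0.451%) and 4.36% of the miR-145a reads (3.05 to 6.01%). In HC-Exo these shares were 0.272% (0.109 to 0.559%) and 7.42% (5.93 to 9.14%). The odds of a passenger read were thus 36.4 times higher for miR-145a than for miR-143 in NC-Exo (9.29 to 313, Fisher's exact test, p = 4.24e-15) and 29.4 times higher in HC-Exo (13.6 to 75.7, Fisher's exact test, p = 1.71e-35). The arm with most reads also lies on opposite sides, the 3p arm for miR-143 and the 5p arm for miR-145a. Of the 28 hairpins with at least 1000 reads, 7 had a smaller share of the rarer arm than miR-143 and 8 a larger share than miR-145a, over both libraries, and the median share was 1.38%.

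Between the libraries, the share of the passenger arm was higher in HC-Exo for both hairpins, but neither difference passed the threshold over all hairpins with both arms named and 10 reads or more. For miR-145a the log2 of the passenger over the main arm differed by 0.81 (0.21 to 1.45, Fisher's exact test, p = 0.00646, adjusted p = 0.132). For miR-143 it differed by 1.12 with an interval from -1.28 to 4.42 (Fisher's exact test, adjusted p = 0.84), so that at 9 passenger reads a shift of this kind was not detectable. Over all hairpins tested, 2.8% passed the threshold, and 6 had a smaller p-value than miR-145a. The 4 that passed, named after their values were seen, were miR-126a and miR-423 with a larger share of the rarer arm in HC-Exo and miR-351 and miR-28a with a smaller share. Of the 28 hairpins with at least 1000 reads, the rarer arm gained in 13, lost in 10 and had 0 reads in 1 library in 5. The hairpins miR-486a and miR-486b carry identical counts and count as 2 among them.

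**Figure D4:**
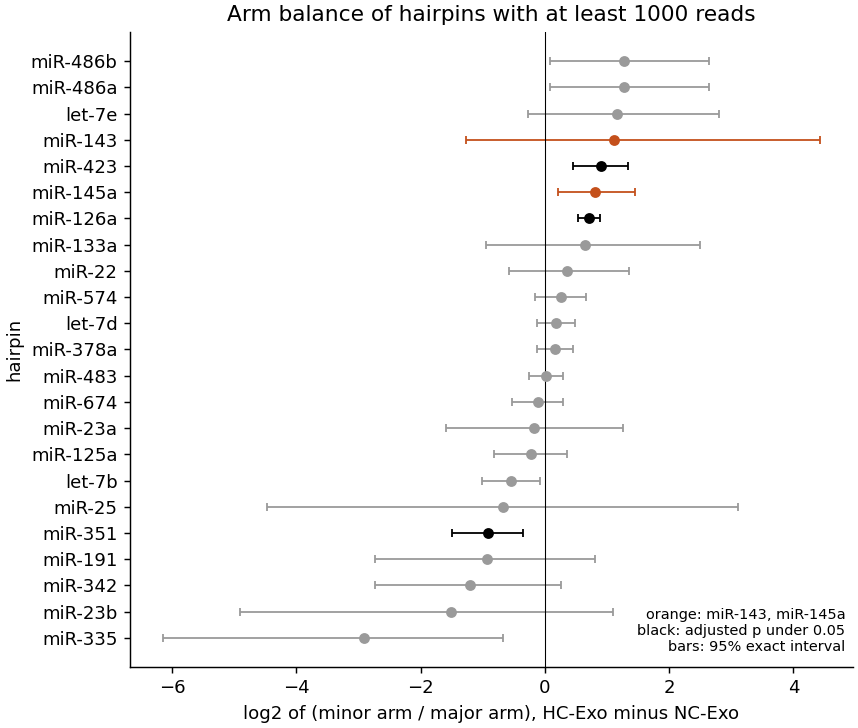
Difference between HC-Exo and NC-Exo in the log2 of the rarer over the more abundant arm, for the 23 hairpins with at least 1000 reads and with reads of both arms in both libraries, with 95% exact intervals. In orange, miR-145a lies at 0.81 and miR-143 at 1.12 with a wide interval, and hairpins in black had an adjusted p-value under 0.05.

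The rows most like the main arms in level over both libraries were found by the distance in log2 RPM among the 247 rows with at least 10 reads in each library. Nearest to miR-143-3p were miR-21a-5p at a distance of 0.16, miR-335-5p at 0.18, miR-378c at 0.31, miR-25-3p at 0.40 and miR-378a-3p at 0.42. Of these, miR-25-3p had the log2 ratio closest to that of miR-143-3p, at 0.30, from 1317 NC-Exo and 2110 HC-Exo reads, and miR-378c and miR-378a-3p had log2 ratios of -0.12 and -0.11. Nearest to miR-145a-5p were miR-191-5p at 0.080, let-7e-5p at 0.15, miR-423-5p at 0.16, miR-342-3p at 0.28 and miR-378d at 0.31. The log2 ratio of miR-342-3p was 0.37 (exact binomial test, adjusted p = 6.84e-06), and the other 4 did not pass the threshold. With 2 libraries, such a likeness is one of 2 values each and is no more than a description.

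The count table holds miRNAs and no smooth muscle messages, so the cell type that released these reads was not measured. The other lists of cell-type miRNAs give the setting. Of 7 miRNAs of cardiac and skeletal muscle, 5 were higher in HC-Exo, 0 were lower and 2 did not pass the test, with a median log2 ratio of 0.51 against 0.10 over all miRNAs tested, of which 13.8% were past the threshold and higher. Of the 5 higher ones, miR-133a-3p and miR-133b-3p are both rows of miR-133, and the median of this list is the value of miR-133b-3p. Of the same 5, miR-1a-3p and miR-133a-3p belong to the 41 miRNAs with 1000 reads or more. Of those 41, 15 were past the threshold and higher. The higher levels of miR-206-3p and miR-499-5p rest on 14 and 10 NC-Exo reads against 57 and 35 HC-Exo reads. The list took 16.9% of the NC-Exo reads and 18.4% of the HC-Exo reads. Its leading member, miR-1a-3p, a miRNA of heart and skeletal muscle, was higher by a log2 ratio of 0.11, less than the 0.12 by which upper-quartile scaling lowers it. It had 10.4 reads for each read of miR-143-3p in NC-Exo against 9.05 in HC-Exo, and 21.6 and 23.0 for each read of miR-145a-5p. The smooth muscle pair of miR-143-3p and miR-145a-5p took 2.30% and 2.69%.

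Of 5 miRNAs common in fibroblasts and other mesenchymal cells, 4 were higher in HC-Exo and 1 was lower, with a median log2 ratio of 0.41, where 22.4% of all miRNAs tested passed in either direction. Of these 5, miR-21a-5p and miR-214-3p belong to the miRNAs with 1000 reads or more, of which 65.9% passed. The higher ones were miR-199a-3p, miR-199a-5p and miR-199b-5p, which are all rows of miR-199, and miR-21a-5p, a miRNA linked to fibrosis. The log2 ratio of miR-21a-5p was 0.16 (0.073 to 0.25) from 1784 NC-Exo and 2588 HC-Exo reads. Upper-quartile scaling lowers it by 0.12, more than the lower end of this interval. The lower one was miR-214-3p, with 1368 NC-Exo and 1260 HC-Exo reads and a log2 ratio of -0.49 (-0.61 to -0.38). The summed level of this list was 32727 RPM in NC-Exo against 31925 in HC-Exo. For the endothelial miR-126a, the main arm miR-126a-5p had 8875 NC-Exo and 8185 HC-Exo reads and a log2 ratio of -0.49 (-0.54 to -0.45), while miR-126a-3p had 474 and 712 reads and did not pass the test. The summed level of both arms was 91114 RPM in NC-Exo against 66817 in HC-Exo.

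Of 8 blood miRNAs, 7 were listed and 5 could be tested. Of these 5, 1 was past the threshold and higher in HC-Exo, miR-223-3p, named after its values were seen. Over all miRNAs tested, 13.8% were past the threshold and higher. The list had a median log2 ratio of 0.56 and a summed level of 7933 RPM in NC-Exo against 8576 in HC-Exo. Of 5 epithelial miRNAs, 4 were listed, with 9 reads in NC-Exo against 6 in HC-Exo in all. In bulk exosomal RNA, more cells of a type and more miRNA released per cell cannot be told apart, and the part of these lists in the difference of miR-143-3p was not tested.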

How the data were processed

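The members and lists were chosen with earlier results of these data known. The authors deposited raw counts of reads per mature miRNA for 1 NC-Exo and 1 HC-Exo library, and normalized values, a signal in which 1 NC-Exo read counts 12.1 and 1 HC-Exo read 9.23. The submitters' processing notes name Bowtie2 and the mouse builds mm9 and GRCm38, without roles. The reference for counting is not given in the sources used here, and mouse references could miss rat reads that differ. The deposited table of the authors' comparison (fold changes, p-values) was not used.

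RPM were computed over the summed reads of all rows, those with identical counts included. With 1 library per group, edgeR's quasi-likelihood test could not be fitted. Levels of miRNAs with a sum of 10 reads or more were compared by two-sided exact binomial tests, and arms and pairs by Fisher's exact test, each with Benjamini-Hochberg adjustment at 0.05. Both were checked on simulated data with counting error alone, which cannot test variation between cultures. Below 4 reads, a library was set at 3 reads for the direction and for the limit of 1 on the log2 ratio. Ratios printed for single rows use the reads as counted unless stated. Clusters were listed from general knowledge. Named were all rows of the cluster, the 5 nearest rows of each main arm, pairs past the threshold or among the 3 smallest, and members of the lists. Tools were Python 3.11.15, scipy 1.17.1, R 4.3.3, edgeR 4.0.16 and DESeq2 1.42.0.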

Additional observations from a re-analysis of the deposited data

How the results depend on the processing

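No paired analysis was possible because each group holds 1 library, and for the same reason no library could be left out. The log2 ratio of miR-143-3p stayed past the threshold under 4 other scalings and 2 other filters, from 0.19 to 0.31. With edgeR's exact test it was 0.31 at assumed coefficients of variation of 0.1, 0.2 and 0.4, with adjusted p-values of 0.484, 0.996 and 1. That of miR-145a-5p turned to -0.049 with TMM, -0.0074 with DESeq2 size factors, -0.10 with upper-quartile scaling and -0.076 without the 10 miRNAs with most reads, with adjusted p-values from 0.325 to 0.981 (exact binomial test). That of miR-145a-3p missed the threshold under the last 2 (adjusted p = 0.0686 and 0.0552, exact binomial test) and at all 3 assumed coefficients.

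Over all miRNAs, 76 passed the threshold, 61.8% of them higher in HC-Exo, against 62 and 38.7% with upper-quartile scaling, 65 and 44.6% without the 10 miRNAs with most reads and 70 with 35 higher under TMM. With a log2 ratio of at least 1, 16 passed, against 8 with at least 10 reads in each library, where fewer miRNAs were tested. At assumed coefficients of 0.1, 0.2 and 0.4, edgeR's exact test passed 0 miRNAs with or without that limit, and 55, 20 and 1 had an unadjusted p-value under 0.05. The balance of the cluster members kept its call with both arms summed, and the arm shifts stayed short of the threshold with at least 50 reads per hairpin. The assumed coefficients of variation were applied to neither the balance nor the arm shifts. Depth limits miR-143-5p, at 9 reads.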
